A study of Mus musculus with 9 samples.

Results

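The SR proteins and the heterogeneous nuclear ribonucleoproteins (hnRNPs) are RNA-binding proteins that help decide which exons of a pre-mRNA are joined. The genes described here are all rows of the deposited gene table whose symbol begins with Srsf and a number or with Hnrnp, pseudogene names left out. The rule found 31 rows, 11 for SR proteins and 20 for hnRNPs, of 24493 rows in all. It also met 1 pseudogene row, Hnrnpa1l2-ps2, which never exceeded 1.36 TPM and was dropped.

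The cells were 6620c1, a line grown from a pancreatic tumor of a mouse. RNA was sequenced at day 0, day 2 and day 14 in a medium that deprives cells of nutrients and oxygen, with 3 libraries a day. The labels describe a DMEM with 2.5 mM glucose, 0.5% serum (fetal calf) and 20% of the usual amino acids. The labels list it for all 9 samples, day 0 included, and name no other agent, genotype or oxygen level. The columns carry a WT prefix that the labels do not explain. No cells were kept for 2 or 14 days without deprivation, so the effects of the medium and of time in culture cannot be told apart. Nothing states that the 3 libraries of a day came from separate cultures, so the p-values measure the spread between these libraries, which may be technical. Values are TPM, a length-corrected abundance that Salmon estimated for the authors, scaled to the same total in every library. The depth of each library is unknown from TPM.

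SR proteins carry RNA recognition motifs and a tail rich in arginine and serine. They bind enhancer sequences in exons, recruit the spliceosome, and are phosphorylated by the SRPK and CLK kinases. Many hnRNPs bind silencer sequences and oppose SR proteins at the same exons, and several also act in mRNA export, stability and translation. Many members of both families restrain their own levels: their genes hold conserved exons whose inclusion introduces an early stop codon and sends the mRNA to nonsense-mediated decay.

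In mouse GENCODE release M21, 19 of the 31 genes, 61.3%, have at least 1 transcript annotated as a target of nonsense-mediated decay, against 29.3% of the 11636 protein-coding genes tested. The share was 81.8% for SR genes, 9 of 11, and 50.0% for hnRNP genes, 10 of 20. The members also have more annotated transcripts of any kind, with a median of 7 against 5. A transcript with a retained intron is annotated for 71.0% of them against 59.7%. The part of the transcript number in the decay share was not tested. The TPM are summed over a gene, so a shift between coding and decay isoforms within a gene could not be seen in these values.

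SR and hnRNP mRNAs were lower at day 2 than at day 0 almost throughout, and most stayed below day 0 at day 14. The test took rows that reached 1 TPM in 3 or more libraries, which kept 30 of the 31 members. Srsf12, an SR gene whose product was described in human cells as a splicing repressor, was the exception, at 0 to 0.183 TPM. At day 2 against day 0, 25 of the 30 were lower and 0 higher by limma at an adjusted p under 0.05, while 31.9% of all 12693 genes tested were lower and 27.1% higher. Unadjusted p under 0.05 and the other fits also gave 0 members higher, except quantile normalization, which gave 1. At day 14 against day 0, 20 members were lower and 1 higher, against 18.8% of all genes lower and 36.2% higher. Between the 2 times in the medium, 13 members were higher at day 14 than at day 2 and 1 was lower, where 27.4% of all genes were higher and 3.79% lower. In bulk RNA, fewer cells of a type and less RNA per cell cannot be told apart.

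Changes were measured as log2 fold changes of TPM + 1. Against day 0 the median member changed by -0.70 at day 2 and by -0.58 at day 14, while the median of all genes tested was -0.02 and 0.22. Set against that median, 29 of the 30 members lay below it at day 2 and 27 at day 14. Both comparisons use the same day 0 libraries. At day 14 against day 2 the median member changed by 0.29 and the median gene by 0.25, a gap of 0.05, and 16 members lay above the median gene and 14 below. The later rise also rested on the scale: with median-of-ratios scaling, which put the median gene at -0.01, 1 member, Hnrnpab, was higher and 4 were lower at day 14 than at day 2, and with quantile normalization 3 were higher and 4 lower. It also rested on single libraries, with 5 members higher without day 14 replicate 2 or 3, 7 without day 2 replicate 1 or 3, and 8 without day 0 replicate 2 or 3. Over all genes tested, omitting 1 library left 2392 to 3868 higher at day 14 than at day 2, beside 3474 with all libraries. Against day 0 the same scalings left 26 and 16 members lower at day 2, and 27 and 19 lower at day 14. The calls over all genes moved with the scale too. Against day 0, median-of-ratios scaling called 4247 of 12662 genes lower at day 2 and 4027 at day 14. Quantile normalization called 3470 and 3363 of 12693, and the main fit 4046 and 2389. Between the later days median-of-ratios scaling called 1572 genes higher and 1485 lower, and quantile normalization 1470 higher and 1905 lower.

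**Figure D1:**
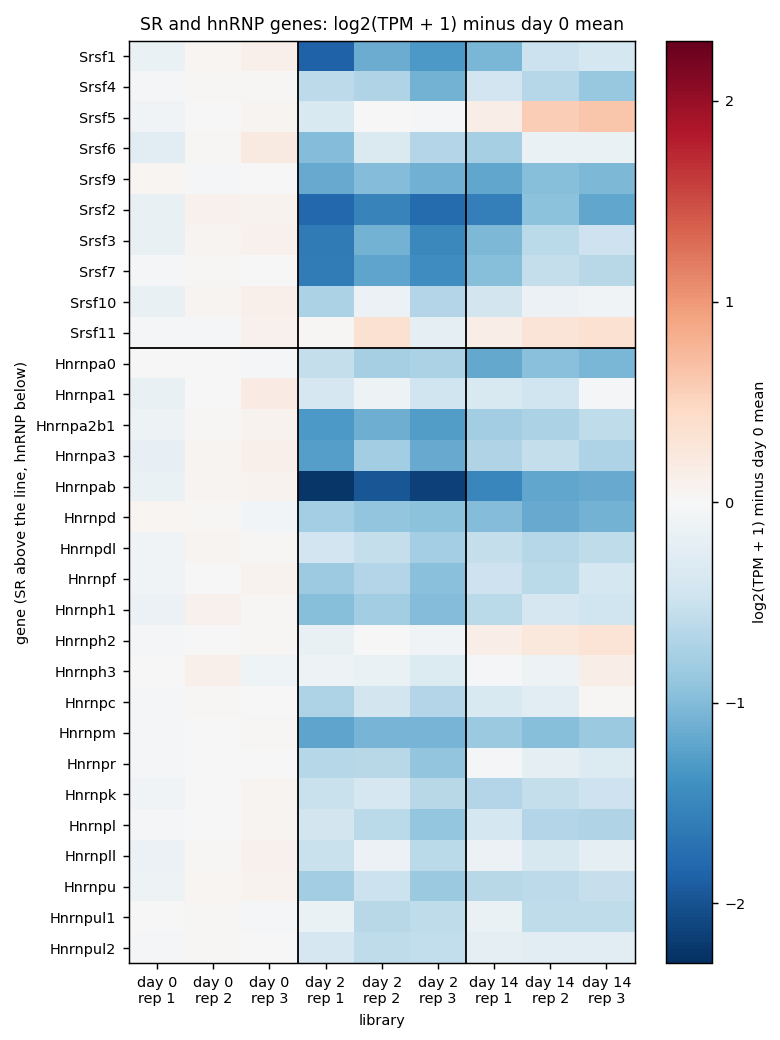
Colour gives log2(TPM + 1) minus the gene's day 0 mean for the 30 tested genes (rows, SR genes above the line and hnRNP genes below it) in the 9 libraries (columns, by day). Blue fills nearly all of day 2 and pales at day 14, while Srsf5, Srsf11 and Hnrnph2 are red at day 14 (under median-of-ratios scaling Srsf11 and Hnrnph2 turn to -0.02 and -0.06).

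The 11 SR genes summed to 1705 ± 128 TPM (mean ± SD, n = 3) at day 0, to 831 ± 118 TPM at day 2 and to 1148 ± 179 TPM at day 14. The 20 hnRNP genes summed to 5234 ± 282, 2846 ± 206 and 3344 ± 146 TPM on the same days. Both families together made up 0.694%, 0.368% and 0.449% of the TPM of a library on the 3 days. The libraries of day 2 and of day 14 did not overlap those of day 0 in either sum, and the exact permutation test gave p = 0.1, the smallest that 3 against 3 libraries allow, for each.

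The ratio of the SR sum to the hnRNP sum does not depend on the scale. It was 0.317, 0.329 and 0.330 in the day 0 libraries, 0.258, 0.315 and 0.301 at day 2, and 0.289, 0.385 and 0.355 at day 14. Day 2 lay below day 0 without overlap (exact permutation p = 0.1), whereas day 14 overlapped day 0 (p = 0.7) and day 2 (p = 0.3). In every day the first library had the lowest ratio. It was also the library in which most SR genes were lowest, 9, 8 and 9 of the 10 tested SR genes at day 0, day 2 and day 14, and leaving out single libraries moved the day 14 minus day 0 difference in the ratio between -0.00367 and 0.0445.

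**Figure D2:**
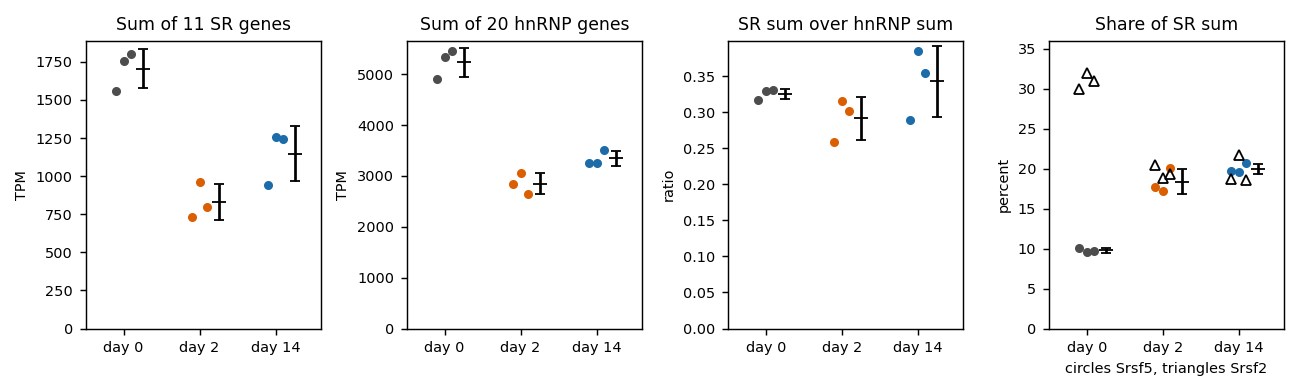
Points are single libraries by day and bars give mean ± SD (n = 3), for the summed TPM of 11 SR genes, the summed TPM of 20 hnRNP genes, their ratio, and the percent of the SR sum from Srsf5 (circles, with the bar) and Srsf2 (triangles, no bar). Both sums are highest at day 0, and the Srsf5 share climbs while the Srsf2 share falls until they meet.

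The genes at the ends of the range were Hnrnpab and Srsf2, which fell most, and Srsf5, the member called higher than day 0 in the main fit. Hnrnpab encodes CArG-binding factor A, an RNA- and DNA-binding protein found in both nucleus and cytoplasm. It was at 631, 731 and 734 TPM at day 0, at 148, 177 and 157 TPM at day 2, and at 246, 304 and 312 TPM at day 14. The 3 days did not overlap, with day 2 lowest. Its day 2 mean was 23.0% of its day 0 mean, a log2 fold change of -2.11 ± 0.12 (SE) with a limma adjusted p of 1.52e-06, and its day 14 mean was 41.1% of day 0, a change of -1.28 ± 0.12 with an adjusted p of 6.18e-05. Its rank among the 31 members by mean TPM was 3 at day 0, 9 at day 2 and 3 at day 14. It was the only member whose day 14 against day 2 call, 0.83 ± 0.12 with a limma adjusted p of 0.00129, held under all 21 alternatives. Its exons overlap those of Phykpl, on the opposite strand and at 13.5 to 19.2 TPM, and the labels do not say whether the libraries keep strand.

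The start regions of 3 genes are shown: Hnrnpab and Srsf9, which were called lower than day 0 at both times, and Srsf5, called higher at day 14 in the main fit. Each is the 250 bases before the RefSeq gene start on GRCm38.p6, read on the gene's strand 5′ to 3′. Capitals mark CCAAT, the GC box GGGCGG and the ETS core CGGAAG on either strand. The Hnrnpab window is chr11:51606882-51607131 on the minus strand, that of Srsf9 is chr5:115326927-115327176 on the plus strand, and that of Srsf5 is chr12:80945249-80945498 on the plus strand, where GENCODE places an exon of the divergent noncoding gene Gm20337.
Hnrnpab: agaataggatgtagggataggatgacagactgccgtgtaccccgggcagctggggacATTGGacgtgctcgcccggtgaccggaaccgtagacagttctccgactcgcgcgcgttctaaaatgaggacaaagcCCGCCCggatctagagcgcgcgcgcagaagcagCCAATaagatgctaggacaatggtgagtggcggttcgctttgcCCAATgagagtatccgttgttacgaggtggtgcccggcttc
Srsf9: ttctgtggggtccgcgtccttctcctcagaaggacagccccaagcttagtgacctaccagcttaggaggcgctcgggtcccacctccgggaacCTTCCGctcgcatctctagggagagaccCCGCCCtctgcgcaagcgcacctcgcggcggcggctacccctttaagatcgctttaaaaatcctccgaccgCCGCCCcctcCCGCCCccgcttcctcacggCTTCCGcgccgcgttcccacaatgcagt
Srsf5: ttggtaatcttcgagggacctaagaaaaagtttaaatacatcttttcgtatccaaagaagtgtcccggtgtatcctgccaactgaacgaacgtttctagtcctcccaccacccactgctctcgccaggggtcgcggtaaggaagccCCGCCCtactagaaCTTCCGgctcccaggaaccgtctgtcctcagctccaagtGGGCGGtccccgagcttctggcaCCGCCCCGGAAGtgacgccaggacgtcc

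The Hnrnpab window holds CCAAT 3 times and the GC box once, while the Srsf9 and Srsf5 windows hold no CCAAT and have 5 matches each, all GC boxes and ETS cores. The matches thus did not set Srsf5 apart from Srsf9. Such windows were found for 29 of the 31 members, Hnrnpll and Hnrnpul2 being without one, and for 9710 of the genes tested. CCAAT was in 15 of the 29 member windows, 51.7%, against 37.2% of all windows, and the GC box in 23, 79.3%, against 60.1%. The ETS core was in 10, 34.5%, against 26.4%, TATAAA in 3, 10.3%, against 6.17%, and the E-box CACGTG in 2, 6.90%, against 8.61%. Member windows had a median GC content of 65.2%, all windows 60.0%. Both strands were searched, and GGGCGG and CGGAAG may share letters where they meet. A match is a run of letters and not a shown site.

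Srsf2, Srsf3 and Srsf7 carry a single RNA recognition motif, and with Srsf1 they had the deepest falls of the SR genes at day 2. All 3 were lower at day 2 and at day 14 than at day 0. Srsf2, long known as SC35 and a marker of nuclear speckles, was at 467, 561 and 558 TPM at day 0, at 150, 181 and 153 TPM at day 2, and at 176, 272 and 231 TPM at day 14. No library of day 2 or day 14 overlapped those of day 0, while the first day 14 library lay within the range of day 2. The changes were -1.71 ± 0.16 at day 2 and -1.24 ± 0.16 at day 14 (limma log2 fold change ± SE against day 0, adjusted p 2.55e-05 and 0.000288). Srsf2 shares exon sequence with Mettl23 and Mfsd11 on the opposite strand, which had 25.8 to 57.6 and 12.6 to 26.8 TPM.

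Srsf3 and Srsf7 are close relatives that also act as adaptors for mRNA export. Srsf3 was at 206, 242 and 248 TPM at day 0, at 74.2, 108 and 81.6 TPM at day 2, and at 113, 150.5 and 166 TPM at day 14. Srsf7 was at 124, 130 and 128 TPM at day 0, at 41.2, 54.0 and 46.6 TPM at day 2, and at 63.9, 86.5 and 81.7 TPM at day 14. In both genes the days did not overlap and day 14 stood between day 2 and day 0. Srsf3 changed by -1.40 ± 0.18 and Srsf7 by -1.42 ± 0.14 at day 2 against day 0 (limma adjusted p 0.00016 and 2.97e-05), and both rose by 0.70 at day 14 against day 2 (adjusted p 0.0177 for Srsf3 and 0.00556 for Srsf7). Under median-of-ratios scaling these rises were 0.41 and 0.42 with adjusted p of 0.103 and 0.0542, and that of Srsf3 was also lost under quantile normalization (0.45) and without day 2 replicate 1 or 3 or day 14 replicate 2 or 3 (adjusted p 0.0554 to 0.0609).

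The SR proteins with a pair of RNA recognition motifs are Srsf1, Srsf4, Srsf5, Srsf6 and Srsf9. Of these 5, 4 were lower at day 2 than at day 0 and 3 at day 14. Srsf1, the founding member and in human tumors a known oncogene, was at 132, 152 and 160.0 TPM at day 0, at 39.9, 66.6 and 58.3 TPM at day 2, and at 70.9, 104 and 112 TPM at day 14. The days did not overlap, though the libraries of one day varied, with a coefficient of variation of up to 24.9% (day 2). It changed by -1.44 ± 0.22 at day 2 against day 0, then by 0.79 ± 0.22 between day 14 and day 2, higher at day 14 (limma adjusted p 0.000414 and 0.0225). The later rise was lost in 6 alternatives, among them median-of-ratios scaling (0.51), quantile normalization (0.54) and the omission of day 2 replicate 1 or of day 14 replicate 2 or 3. Its call at day 14 against day 0, -0.65 with an adjusted p of 0.0298, was lost with quantile normalization (adjusted p 0.0755) and without day 0 replicate 2 or 3 or day 14 replicate 1 (0.0775, 0.0879 and 0.0945).

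Srsf9 fell at day 2 and stayed there. It was at 159, 151 and 153 TPM at day 0, at 68.1, 76.8 and 71.0 TPM at day 2, and at 66.5, 77.5 and 75.3 TPM at day 14. The 2 later days overlapped fully: the day 14 against day 2 change was 0.02 with a 95% interval of -0.19 to 0.23. Against day 0 the changes were -1.09 ± 0.09 at day 2 and -1.07 ± 0.09 at day 14 (limma adjusted p 1.54e-05 and 4.62e-05), and quantile normalization gave -0.71 at day 2. Srsf4 changed by -0.80 and -0.65 at day 2 and day 14 against day 0, both called, with -0.51 at day 2 under quantile normalization, and shares exon sequence with Gm12992 on the opposite strand, at up to 0.508 TPM. Srsf6 was lower at day 2 (-0.66, adjusted p 0.0248), a call lost with quantile normalization, without the 20 most abundant rows and in 4 single-library omissions, and at day 14 its 73.8 to 113 TPM overlapped the 107 to 145 TPM of day 0. The day 14 change of Srsf6, -0.36, was called under median-of-ratios scaling, at -0.65 (adjusted p 0.0265).

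Srsf5, first described in rat as a gene induced in regenerating liver, went the other way. It was at 158, 167 and 174 TPM at day 0, at 130, 165 and 160 TPM at day 2, and at 185, 246 and 258 TPM at day 14. Day 2 overlapped day 0, with a change of -0.14 and a 95% interval of -0.46 to 0.19, and all 3 day 14 libraries stood above the rest. The limma changes at day 14 were 0.45 ± 0.14 against day 0 (adjusted p 0.0255) and 0.58 ± 0.14 against day 2 (adjusted p 0.0146). The call against day 0 was lost under median-of-ratios scaling, at 0.15 with an adjusted p of 0.409, and on leaving out day 0 replicate 1 or 2 or day 14 replicate 2 or 3, at 0.36 to 0.45 with adjusted p of 0.0643 to 0.0843. The call against day 2 was lost under median-of-ratios scaling (0.30), under quantile normalization (0.31) and without day 14 replicate 2 or 3 (0.53 and 0.49).

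Within the SR sum, where scale cancels, the place of Srsf5 changed more plainly. It gave 9.52% to 10.1% of the SR sum at day 0, 17.2% to 20.1% at day 2 and 19.5% to 20.7% at day 14. At day 2 the larger share came with a lower SR sum, as Srsf5 itself had no called change. Srsf2 gave 29.9% to 32.0%, 18.8% to 20.4% and 18.5% to 21.7% on those days. The ratio of Srsf5 to Srsf2 was 0.316 ± 0.0204 at day 0, 0.943 ± 0.0912 at day 2 and 1.02 ± 0.110 at day 14, with neither later day overlapping day 0 (exact permutation p = 0.1 each, the smallest possible). These shares and the pairs of genes set against each other below were chosen after the values were seen.

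Srsf10 and Srsf11 stand outside the classical set. Srsf10, which in its dephosphorylated form represses splicing, was at 74.5 to 90.7 TPM at day 0, 50.5 to 76.2 TPM at day 2 and 62.8 to 79.6 TPM at day 14. It was called lower at day 2 (-0.51, adjusted p 0.0274) though 1 library reached into the day 0 range, and the call was lost in the same alternatives as that of Srsf6. At day 14 it was called lower under median-of-ratios scaling, at -0.50 (adjusted p 0.0193). Srsf11 was at 72.3 to 79.6, 65.0 to 95.8 and 83.5 to 96.1 TPM on the 3 days, and its share of the SR sum was 4.13% to 4.63%, 8.16% to 10.4% and 7.30% to 8.87%. The change at day 14 against day 0, 0.27 with a limma adjusted p of 0.127, was called in 5 alternatives (adjusted p 0.0335 to 0.0486) and was -0.02 under median-of-ratios scaling. At day 2 against day 0 the Srsf11 change of 0.06 was not called (limma adjusted p 0.721), except under quantile normalization (0.39, adjusted p 0.0133). At day 14 against day 2 its change of 0.21 was not called (adjusted p 0.281), except without day 2 replicate 2 (0.35, adjusted p 0.0425).

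**Figure D3:**
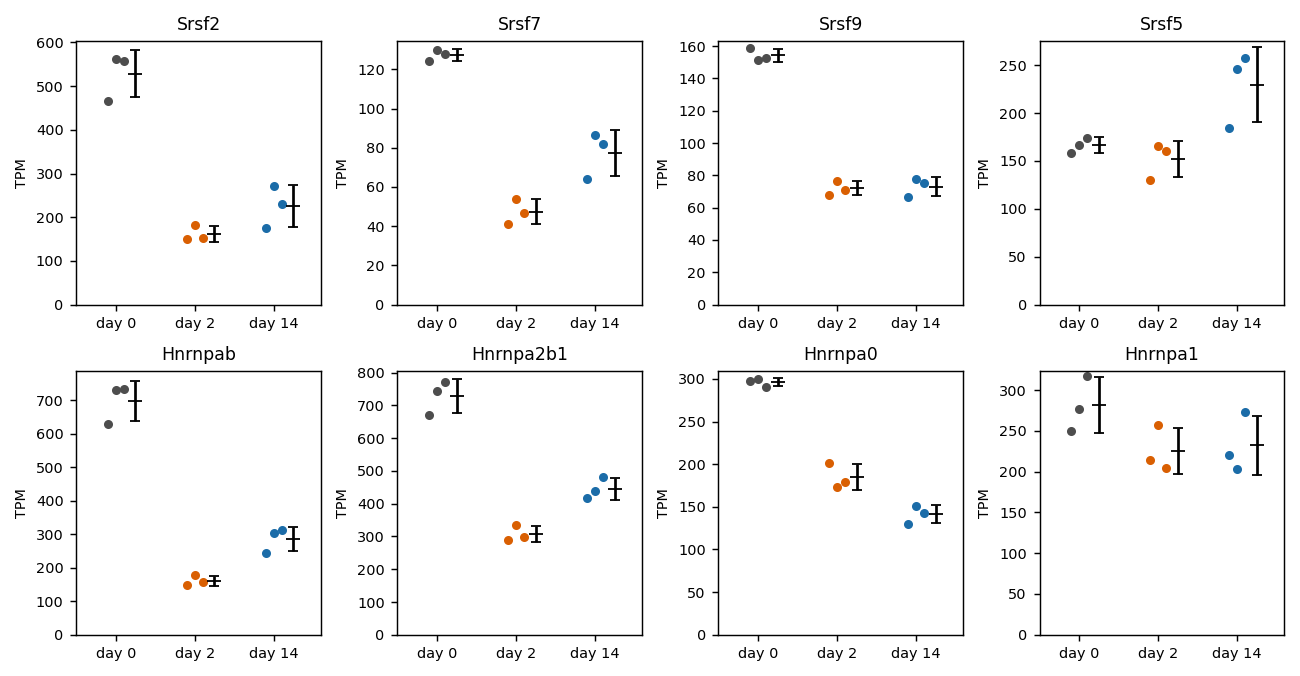
TPM of 8 genes in the single libraries by day (points), with mean ± SD (bars, n = 3), each axis starting at 0. Srsf2, Srsf7, Hnrnpab and Hnrnpa2b1 are lowest at day 2, Srsf9 is level between day 2 and day 14, Hnrnpa0 is lowest at day 14, and Srsf5 is highest at day 14.

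The hnRNP A/B and D genes encode shuttling proteins, several of which bind exonic and intronic silencers. Of the 7, 6 were lower than day 0 at day 2 and 6 at day 14, Hnrnpa1 being the one left out both times. Hnrnpa2b1, a silencer-binding protein that also carries RNAs to cell processes, was at 670, 743 and 771 TPM at day 0, at 289.6, 335 and 298 TPM at day 2, and at 416, 439 and 482 TPM at day 14. The days did not overlap. The changes were -1.24 ± 0.10 at day 2 and -0.71 ± 0.10 at day 14 against day 0 (limma adjusted p 9.51e-06 and 0.000417), and 0.53 at day 14 against day 2 (adjusted p 0.00414), the last lost under median-of-ratios scaling, at 0.25 with an adjusted p of 0.0667.

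Hnrnpa1, its partner at many silencers, was at 249, 277 and 317 TPM at day 0, at 214, 258 and 204 TPM at day 2, and at 221, 204 and 273 TPM at day 14. All 3 days overlapped. The change was -0.32 at day 2 and -0.28 at day 14 against day 0, with 95% intervals of -0.64 to 0.01 and -0.60 to 0.05. The missing calls rested on the scale and on single libraries. Median-of-ratios scaling called Hnrnpa1 lower at both times, at -0.33 and -0.57 (limma adjusted p 0.0375 and 0.00331), and so did leaving out day 2 replicate 2 at day 2 (-0.42, adjusted p 0.0394) and day 14 replicate 3 at day 14 (-0.40, adjusted p 0.0441), while quantile normalization gave 0.18 at day 2, not called. Hnrnpa1 has many processed pseudogene copies in the mouse genome, so its TPM may hold or lack reads of near-identical sequence. The ratio of Hnrnpa1 to Hnrnpa2b1 was 0.386 ± 0.0225 at day 0, 0.732 ± 0.0433 at day 2 and 0.520 ± 0.0524 at day 14, and the 3 days did not overlap.

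Hnrnpa0 was the one member called lower at day 14 than at day 2. It encodes a protein that binds AU-rich elements in inflammatory mRNAs, and it was at 298, 299.5 and 291 TPM at day 0, at 202, 174 and 179 TPM at day 2, and at 130.2, 151 and 142 TPM at day 14. Each later day lay wholly below the one before. The changes were -0.68 ± 0.09 at day 2 and -1.07 ± 0.09 at day 14 against day 0 (limma adjusted p 0.000246 and 4.55e-05). Under quantile normalization the day 2 call was lost, at -0.18 with an adjusted p of 0.165. The change between the later days, -0.39 with a limma adjusted p of 0.0136, was lost when the fit held only these 2 days, with an adjusted p of 0.0567, and was -0.67 under median-of-ratios scaling and quantile normalization alike. Its ratio to Hnrnpa2b1 was 0.408 at day 0, 0.605 at day 2 and 0.317 at day 14, without overlap between days.

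Hnrnpd, also called AUF1, promotes decay of mRNAs with AU-rich elements. It was at 59.9, 59.1 and 56.2 TPM at day 0, at 33.5, 30.7 and 29.9 TPM at day 2, and at 28.9, 25.5 and 26.9 TPM at day 14. The 3 days did not overlap, and the changes against day 0 were -0.88 ± 0.10 at day 2 and -1.08 ± 0.10 at day 14 (limma adjusted p 5.95e-05 and 4.66e-05). Between the later days Hnrnpd was called lower at day 14 under median-of-ratios scaling (-0.48), quantile normalization (-0.51) and without the 20 most abundant rows (-0.33). Its paralog Hnrnpdl changed by -0.59 at both times (adjusted p 0.00132 and 0.00171), with -0.24 at day 2 under quantile normalization, and the Hnrnpdl to Hnrnpd ratio was 1.91 ± 0.141, 2.35 ± 0.181 and 2.72 ± 0.0654 on the 3 days. Hnrnpa3, whose protein resembles that of Hnrnpa2b1, changed by -1.08 at day 2 and -0.65 at day 14 against day 0, both called.

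**Figure D4:**
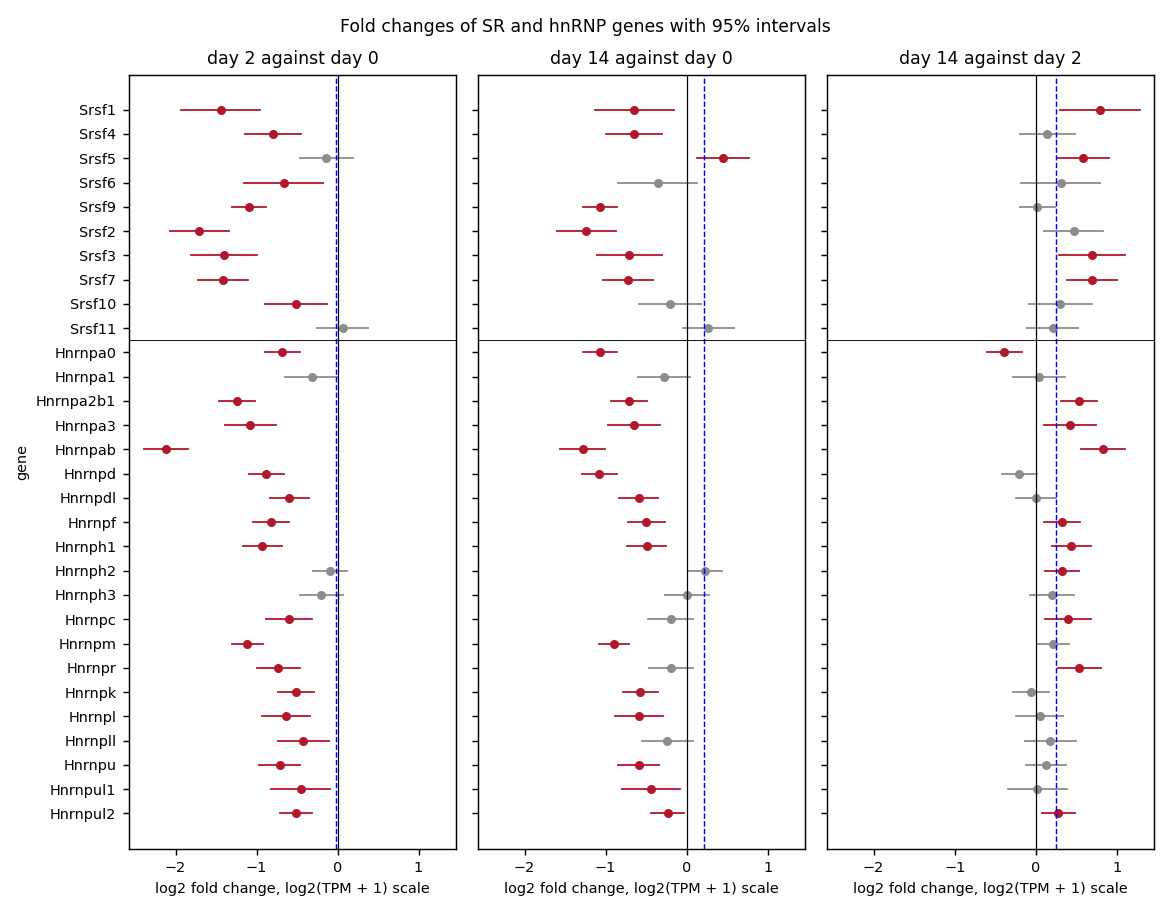
Log2 fold changes of TPM + 1 (points) with 95% limma intervals for the 30 tested genes in the 3 comparisons, red where the adjusted p was under 0.05 and grey otherwise. The blue dashed line is the median of all 12693 genes tested, at -0.02, 0.22 and 0.25, and nearly all points lie left of it in the 2 comparisons with day 0.

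The hnRNP F/H genes encode proteins that bind runs of G. Hnrnpf and Hnrnph1 were lower than day 0 at both times, and the paralogs Hnrnph2 and Hnrnph3 were called at neither. Hnrnpf, the most abundant member on every day, had 703 to 782 TPM at day 0, 382 to 464 at day 2 and 484 to 561 at day 14. It changed by -0.82 and -0.50 against day 0 (limma adjusted p 0.000123 and 0.00286). Hnrnph1 had 216 to 254, 118 to 135 and 152 to 181 TPM on the 3 days, and changed by -0.93 and -0.49 (adjusted p 8.3e-05 and 0.00411). Quantile normalization gave -0.47 at day 2 and -0.33 at day 14 for Hnrnpf and -0.48 and -0.27 for Hnrnph1, and median-of-ratios scaling gave -0.79 at day 14 for both, all called.

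Hnrnph2 had 35.0 to 36.6 TPM at day 0, 31.7 to 35.5 at day 2 and 39.9 to 44.6 at day 14. Its day 14 libraries were above all others. The change at day 14 against day 0, 0.23 with a limma adjusted p of 0.0592, passed the threshold in 3 alternatives and was -0.06 under median-of-ratios scaling. The Hnrnph2 to Hnrnph1 ratio was 0.152 ± 0.0103 at day 0, 0.273 ± 0.0136 at day 2 and 0.252 ± 0.0156 at day 14, with no overlap between day 0 and the later days. Hnrnph3, at 9.83 to 13.9 TPM over all libraries, was called in no comparison in the main scale. At day 14 against day 0 its change of 0.00 turned to -0.27 under median-of-ratios scaling and -0.29 under quantile normalization, both past the threshold. It shares exon sequence with Rufy2, at 3.38 to 5.45 TPM, on the opposite strand.

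Hnrnpc, Hnrnpm and Hnrnpr were lower at day 2 than at day 0, and of the 3 Hnrnpm was called lower at day 14. Median-of-ratios scaling also called Hnrnpc and Hnrnpr lower at day 14, at -0.49 and -0.47 (limma adjusted p 0.00482 and 0.00369), beside -0.20 and -0.19 without it, and quantile normalization called Hnrnpr at -0.43 (adjusted p 0.00696). The day 2 call of Hnrnpc, -0.60, was lost under quantile normalization, at -0.19 (adjusted p 0.139). Hnrnpc binds tracts of U and shields introns from splicing at cryptic sites. It was at 153 to 162 TPM at day 0, 96.1 to 118 at day 2 and 123 to 162 at day 14, so that day 14 overlapped day 0. Hnrnpm, a regulator of epithelial and mesenchymal splicing programs, was at 308 to 320 TPM at day 0, 135 to 150 at day 2 and 159 to 174 at day 14. It changed by -1.11 at day 2 and -0.89 at day 14 against day 0 (limma adjusted p 6.67e-06 and 5.85e-05), with -0.63 at day 2 under quantile normalization. Hnrnpm shares exon sequence with March2 on the same strand, which had 28.1 to 53.3 TPM. Hnrnpr, at 8.79 to 17.4 TPM over all libraries, changed by -0.73 at day 2 against day 0 and by 0.54 at day 14 against day 2, the last with a limma adjusted p of 0.00918 that was 0.0754 under median-of-ratios scaling.

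The 3 hnRNP K and L genes and the 3 hnRNP U genes were all lower at day 2 than at day 0, with medians of -0.51 and -0.52 beside -0.70 for all members. Under quantile normalization 5 of these 6 calls were lost, with changes of -0.08 for Hnrnpk, -0.16 for Hnrnpl, -0.15 for Hnrnpll, -0.07 for Hnrnpul1 and -0.18 for Hnrnpul2 (limma adjusted p 0.121 to 0.764), and Hnrnpu was at -0.28 (adjusted p 0.0161). Between the later days Hnrnpul2 was the one of them called, at 0.28 with a limma adjusted p of 0.0388, a change that was -0.00056 under median-of-ratios scaling. Hnrnpk, which binds runs of C, changed by -0.51 at day 2 and -0.57 at day 14 against day 0. Hnrnpl, which binds CA repeats, changed by -0.64 and -0.59. Hnrnpll, known for the CD45 exon switch in lymphocytes, was called at day 2 (-0.42, adjusted p 0.0264) and not at day 14 (-0.24, adjusted p 0.171). Its day 2 call was also lost without the 20 most abundant rows and without day 0 replicate 2 or 3 or day 2 replicate 1 or 3 (adjusted p 0.0749 to 0.090), and at day 14 median-of-ratios scaling called it lower, at -0.53 (adjusted p 0.0030). That scaling put the day 14 changes of Hnrnpk, Hnrnpl and Hnrnpu at -0.87, -0.88 and -0.89. Hnrnpu, a chromatin scaffold protein, changed by -0.72 and -0.59. Its relatives Hnrnpul1 and Hnrnpul2, known in human cells to act at DNA breaks, changed by -0.46 and -0.52 at day 2 and by -0.44 and -0.24 at day 14, and the Hnrnpul1 calls and the day 14 call of Hnrnpul2 had adjusted p of 0.0349 to 0.0468 and were lost in most single-library omissions. Exons of Hnrnpk overlap Rmi1, and those of Hnrnpu overlap Cox20, on opposite strands.

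The other genes of the splicing machinery are given by lists, to be read beside all genes tested, of which 31.9% were lower and 27.1% higher at day 2 against day 0, and 18.8% lower and 36.2% higher at day 14. Of 20 tested genes for hnRNP proteins with other gene names, 14 were lower and 1 higher at day 2 against day 0, and 10 were lower and 3 higher at day 14, with medians of -0.57 and -0.36. Of 32 genes for Sm proteins and proteins of the U1, U2 and U5 particles, the core of the spliceosome, 27 were lower and 1 higher at day 2, and 24 lower and 1 higher at day 14, with medians of -1.04 and -0.73. The 22 SR-related proteins, which carry arginine and serine stretches and in most cases no RNA recognition motif, were 6 lower and 4 higher at day 2, and 4 lower and 6 higher at day 14, with medians of -0.12 and 0.09. The 11 tested SR protein kinases, phosphatase and importins were 3 lower and 3 higher at day 2, and 1 lower and 3 higher at day 14, with medians of 0.11 and 0.16. The shares lower in these 2 lists, 27.3% for each at day 2 and 18.2% and 9.09% at day 14, lay near or below those of all genes. So did the shares higher, 18.2% and 27.3% at day 2 and 27.3% for each at day 14. The 23 other splicing regulators were 11 lower and 5 higher at day 2, and 7 lower and 7 higher at day 14, with medians of -0.19 and 0.10. The 15 genes of nonsense-mediated decay and the exon junction complex were 6 lower and 2 higher at day 2, and 6 lower and 3 higher at day 14, with medians of -0.22 and -0.18. Small counts moved with single libraries: SR-related genes lower at day 14 numbered 1 without day 0 replicate 2 or 3 or day 14 replicate 2, and 2 without day 0 replicate 1 or day 14 replicate 1, while without day 2 replicate 3 the genes higher at day 2 numbered 5 among the kinases, phosphatase and importins and 2 each among the hnRNP genes with other names and the core genes. The 1 core gene higher was lost, leaving 0, at day 2 without any one day 0 library or day 2 replicate 1, and at day 14 without any one day 0 library, day 2 replicate 2 or day 14 replicate 1 or 3.

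**Figure D5:**
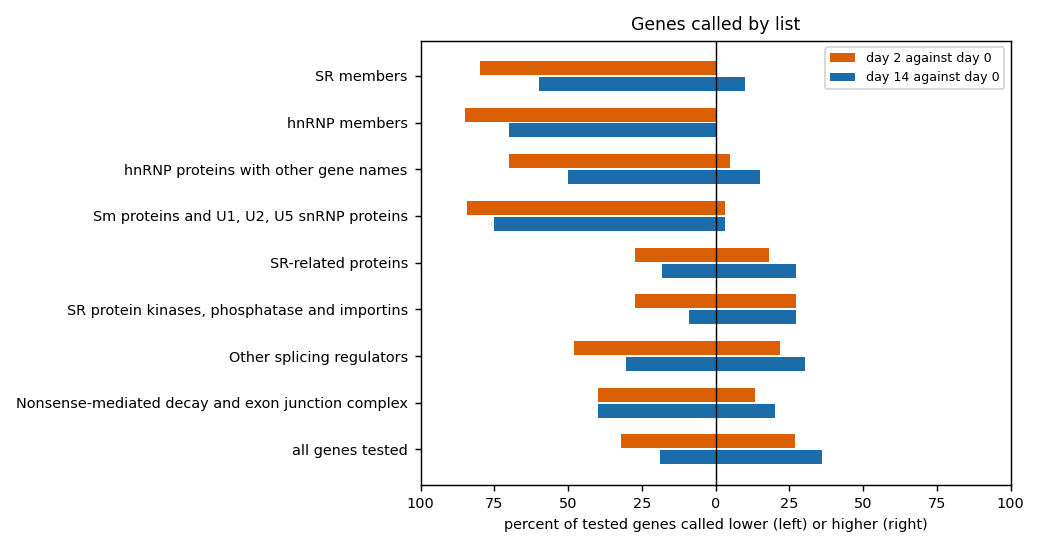
Bars give the percent of each list's tested genes called lower (left of 0) or higher (right of 0) at day 2 (orange) and day 14 (blue) against day 0. The SR and hnRNP members and the Sm and snRNP list reach furthest left, and the bottom row gives all 12693 genes tested.

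Single genes show the contrast within these lists. The 3 kinases that were higher at both times were Clk1, Clk4 and Srpk2, which phosphorylate SR proteins. Clk1 averaged (mean ± SD, n = 3) 90.7 ± 11.5 TPM at day 14 and 37.3 ± 3.89 TPM at day 0, a change of 1.26 with a limma adjusted p of 0.000349. Clk4 averaged 45.6 ± 4.83 TPM at day 14 against 20.1 ± 1.70 TPM at day 0, while Srpk2 averaged 21.5 ± 5.10 TPM at day 14 against 9.11 ± 0.398 TPM at day 0. Srpk1, a kinase of the same list, was lower at day 2, at 30.2 ± 10.1 TPM against 60.3 ± 5.28 TPM at day 0. Its change was -1.02 with a limma adjusted p of 0.00176. Clk2, Clk3, Dyrk1a and Prpf4b were not called at day 2. All of these kinases but Clk1 were named after their values were seen. Ppp1ca, a catalytic subunit of protein phosphatase 1, averaged 271 ± 15.7 TPM at day 14 and 652 ± 48.1 TPM at day 0, a change of -1.26. Rsrp1, an arginine- and serine-rich protein, rose most of the SR-related genes, to 353 ± 4.67 TPM at day 14 against 91.2 ± 7.45 TPM at day 0, a change of 1.94, and Sfswap, a splicing regulator, changed by -0.51.

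Among the remaining lists Cirbp, the cold-inducible RNA-binding protein, changed by 0.98 at day 14 against day 0, and Rbmxl1, a near copy of Rbmx whose reads may be shared with it, by -0.93. Mbnl2, a muscleblind regulator of exon choice, averaged 96.2 ± 6.78 TPM at day 14 and 43.1 ± 6.69 TPM at day 0, a change of 1.15, while Rbm38, a p53 target that binds mRNA, changed by -1.13. Snrpa1, a protein of the U2 particle, averaged 36.2 ± 2.18 TPM at day 14 and 97.2 ± 5.56 TPM at day 0, a change of -1.40. Prpf6, of the U5 particle, was the one core gene higher, at 0.34 with a limma adjusted p of 0.0496, which held in 9 of 21 alternatives. Magohb, of the exon junction complex, changed by -1.18 and Upf2, a nonsense-mediated decay factor, by 0.79.

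Across the series, rows with at least 1 TPM numbered 11569 to 11633 at day 0, 12033 to 12085 at day 2 and 12595 to 12717 at day 14. A single small RNA row, Mir6236, took 22.5% of TPM in day 2 replicate 3 and 8.27% to 14.6% in the others, and with small RNA and ribosomal rows removed 24 members were lower at day 2 and 19 at day 14 against day 0. With that removal 3686 and 2354 of all 12664 genes tested were lower at these times. All 8 epithelial and ductal markers were above 0 in every library, though Epcam went down to 0.429 TPM. Their summed levels, mostly of keratins, were 11004 to 11642 TPM at day 0, 5524 to 7706 at day 2 and 6959 to 8781 at day 14. One by one they moved in both directions: against day 0, 5 were lower and 1 higher at day 2, and 3 were lower and 3 higher at day 14. Krt7, Krt8 and Krt18 were lower at both times, while Sox9 was higher at both, with a change of 1.79 at day 2. Epcam (-0.93) and Muc1 (-1.56) were lower at day 2, and Epcam (2.20) and Cdh1 (0.73) were higher at day 14. The part of these changes in the members' values was not tested. Acinar markers summed to at most 7.19 TPM with Cela1 highest, endocrine markers to at most 1.46 with 3 of 5 at 0 throughout, and no leukocyte or endothelial marker reached 1 TPM. Of the fibroblast markers Pdgfra was highest, at 2.81 TPM.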

How the data were processed

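RNA sequencing libraries of 9 samples, 3 per day, were grouped by the day in their labels. The authors deposited gene TPM, which Salmon estimated per the submitters' processing notes. For the Salmon version, the genome build and the annotation: not given in the sources used here. Depth is unknown from TPM, so no counting intervals are given. The members and the gene lists were chosen with earlier results of these data known, and member genes given sample by sample were the 5 largest rises and falls among those called in each comparison whose mean reached 10 TPM in a day compared and whose groups had no overlap. Hnrnpa2b1 and Hnrnpa1 were given sample by sample outside this rule. Other members were given by range or by their changes alone. For each other list the called genes with the largest rise and fall at day 14 against day 0 were named.

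Rows that reached 1 TPM in 3 or more libraries (12693 rows) were fitted as log2(TPM + 1) with limma 3.58.1 in R 4.3.3, with a mean per day over all 9 libraries and moderated variances with a trend. Tests were two-sided, with Benjamini-Hochberg adjustment across these rows and calls at an adjusted p under 0.05. A fold change on this scale understates the change of genes with low TPM. Sums and ratios were compared by exact permutation tests, two-sided. The fit was tested on simulated data. Transcript classes and exon overlaps come from GENCODE M21 and start regions from RefSeq (GRCm38.p6), matched by symbol. The 21 alternatives were other pseudocounts (0.1 and 5), filters, scalings, row removals, variance fits, the replicate block and the omission of each library. Python 3.11.15 with matplotlib 3.10.9 drew the figures.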

Additional observations from a re-analysis of the deposited data

Results flagged for a closer look

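The changes of 14 members relative to day 0 were unequal at the 2 later times, by the limma test of day 14 against day 2 itself (log2 fold change, adjusted p under 0.05). It was higher at day 14 by 0.83 for Hnrnpab, 0.79 for Srsf1, 0.70 for Srsf3, 0.70 for Srsf7, 0.58 for Srsf5, 0.54 for Hnrnpr, 0.53 for Hnrnpa2b1, 0.44 for Hnrnph1, 0.43 for Hnrnpa3, 0.40 for Hnrnpc, 0.32 for Hnrnpf, 0.32 for Hnrnph2 and 0.28 for Hnrnpul2. Hnrnpa0 changed by -0.39. The median of all genes tested was 0.25 in the same comparison, so Hnrnpul2 stood 0.03 above it and Hnrnpab 0.58 above it. Of all genes tested, 27.4% were called higher and 3.79% lower there. Of the 14 member calls 1, that of Hnrnpab, held under all 21 alternatives.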

How the results depend on the processing

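With quantile normalization 16 members were lower and 1 higher at day 2 against day 0, 2 higher at day 14 against day 0, and 3 higher and 4 lower at day 14 against day 2. Median-of-ratios scaling gave 0 higher at day 14 against day 0, and 1 higher and 4 lower at day 14 against day 2. The counts over all genes under these scalings are given above with those of the members. Without the 20 most abundant rows 3 were higher at day 14 against day 0, and 8 higher and 2 lower at day 14 against day 2, and without small RNA and ribosomal rows 3 and 8 were higher in those comparisons. With only the groups compared in the fit 2 were higher at day 14 against day 0, and 7 higher and 0 lower at day 14 against day 2. With no filter 2 were higher at day 14 against day 0. Over all genes, 5209 of 13083 were higher at day 14 against day 0 without the 20 most abundant rows. At day 14 against day 2, 2590 were higher and 818 lower. Without small RNA and ribosomal rows 5173 and 3116 of 12664 were higher in those comparisons. With only the groups compared 4780 and 2325 of 12693 were higher, and 291 lower at day 14 against day 2. With no filter 5837 of 20596 were higher at day 14 against day 0. Leaving out 1 library gave 21 to 25 members lower and 0 higher at day 2 against day 0, 17 to 20 lower and 0 to 2 higher at day 14 against day 0, and 5 to 15 higher and 1 lower at day 14 against day 2. The lowest of these, 5, came without day 14 replicate 2 or 3, and the count was 7 without day 2 replicate 1 or 3 and 8 without day 0 replicate 2 or 3. The SR to hnRNP ratio then differed by -0.0458 to -0.0173 at day 2 against day 0, by -0.00367 to 0.0445 at day 14 against day 0 and by 0.0303 to 0.0785 at day 14 against day 2. Direction turned under at least 1 alternative for 4 members at day 2 and 3 at day 14, both against day 0, and for 13 between the later days. With a call on either scale these were Hnrnph3 at day 14 against day 0 (-0.27 and -0.29 under median-of-ratios and quantile scaling), Hnrnpdl at day 14 against day 2 (-0.28 and -0.27) and Hnrnpul2 at day 14 against day 2 (-0.00056 under median-of-ratios scaling), and the cause was not tested. Against day 0 the others, not called where the direction turned, were Hnrnpa1 (0.18), Hnrnph2 (0.14) and Srsf5 (0.31) at day 2 under quantile normalization, Srsf11 at day 2 (-0.08 without day 2 replicate 2), and Hnrnph2 and Srsf11 at day 14 (-0.06 and -0.02 under median-of-ratios scaling). Under all 21 alternatives the member calls kept were 16 of 25 for day 2 and 17 of 21 for day 14, both against day 0, and 1 of 14 between the later days. By correlation the replicate numbers gave no clear pairing of the samples: same-numbered samples correlated at -0.0709 to 0.318 and 4 of 9 samples best with their own number. Among the 10 tested SR genes, however, the first library was lowest for 9, 8 and 9 at day 0, day 2 and day 14. A pairing by number can therefore not be excluded for these genes. With the replicate block 25 members were lower at day 2 and 20 lower and 1 higher at day 14 against day 0 (Srsf6, -0.36 with adjusted p 0.0394, was gained and Hnrnpul2, adjusted p 0.0692, was lost), and 12 higher and 1 lower at day 14 against day 2. Over all 12693 genes the block gave 4113 lower at day 2, and 2443 lower and 4673 higher at day 14, against day 0. Between the later days it gave 3526 higher and 505 lower. Among the lists, quantile normalization left 7 of 20 hnRNP genes with other names, 6 of 23 other regulators and 3 of 22 SR-related genes lower at day 2. Over all genes it left 3470 of 12693 lower then. Under median-of-ratios scaling 3 Sm and snRNP genes were higher at day 14 against day 2, against 16 in the main fit. That scaling called 1572 of all 12662 genes higher there.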

Other observations

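Between the times in the medium, 16 of 32 core spliceosome genes (50.0%) were higher at day 14 than at day 2 by limma. The share of all genes tested was 27.4%. The core count was 7 without day 2 replicate 3 or day 14 replicate 3, and 10 without day 0 replicate 2 or 3 or day 14 replicate 2. The core genes had a median log2 fold change of 0.32 beside 0.25 for all genes tested. Under median-of-ratios scaling 3 core genes were higher and 1 lower, beside 1572 and 1485 of all 12662 genes. Magohb averaged (mean ± SD, n = 3) 30.7 ± 4.27 TPM at day 14 and 14.2 ± 0.750 TPM at day 2, a change of 1.05. Rsrp1 averaged 353 TPM on both days, and neither its change of 0.01 nor that of Clk1, 0.15, passed the test. The median coefficient of variation was 7.59%, 18.6% and 16.2% for 10 SR genes and 5.39%, 9.56% and 7.44% for 20 hnRNP genes at day 0, day 2 and day 14.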
